A study of Homo sapiens with 6 samples.

Results

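Cholesterol supply was described through 33 genes of sterol synthesis, its control by SREBP2, lipoprotein uptake, and sterol trafficking and storage. The genes were given as a list of symbols, and all 33 had a row among the 16229 gene symbols of the deposited count table. They comprise 8 genes of the mevalonate arm, 11 of the sterol arm, 5 of SREBP2 control, 2 receptors of uptake and 7 of trafficking and storage. Of the 33 genes, 32 had enough counts to be tested, and the receptor gene VLDLR did not.

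The study cultured MC38 cells, labelled as colorectal cancer cells of wild-type genotype, for 24 hours with GCA (3 libraries) or without it (CON, 3 libraries). By the series title GCA is glycocholic acid, a bile acid joined to glycine and made from cholesterol in the liver, used at a dose that the labels do not state. The titles of the GCA libraries read "fa", so each GCA value rests on the treatment label. Although MC38 cells are generally a mouse line, the organism is labelled human and the tables list human symbols, and the extraction text speaks of heart tissue. Whether the 3 libraries of a group are separate cultures is not stated, and the p-values therefore reflect the spread among these libraries alone, which may be technical.

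Cells build cholesterol from acetyl-CoA through mevalonate and isoprenoid units to squalene, which is closed to lanosterol and trimmed in the endoplasmic reticulum to cholesterol. When membrane sterol is low, SCAP carries the transcription factor SREBP2 to the Golgi, where proteases release it to switch on the synthesis and uptake genes, and INSIG proteins hold the SCAP complex back when sterol is plentiful. Cholesterol taken up with lipoproteins leaves the lysosome through NPC2 and NPC1, is moved between membranes by transfer proteins, and is stored as esters.

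SREBP2 acts in promoters together with the factor NF-Y, which binds CCAAT boxes. RefSeq promoter windows of 300 bases (GRCh38.p14, each placed around an annotated start) were at hand for 30 of the 33 genes, some with several windows. In PMVK, CYP51A1, MVK and SCAP the window lies inside the gene and does not reach its outermost start, so no window at that start was searched. FDFT1, SQLE and ACAT2 had none. Both strands were searched for the sterol element core TCACNCCAC and for CCAAT. At least 1 CCAAT stood in the windows of 21 of 30 genes (70.0%), against 43.27% of the 10155 tested genes with a window. By result, CCAAT stood in 3 of 5 genes that were higher in GCA, 0 of 3 that were lower and 18 of 21 that did not pass the test. The sterol element core stood in 1 of 30 genes, SREBF2 itself, against 1.46% of the tested genes. These letters are matches only, in windows of fixed length. The windows below are shown for the gene with the largest rise, the lower gene next to it in the pathway, the mevalonate kinase gene with 5 CCAAT matches, and the only gene with a sterol element core. Capitals mark CCAAT on either strand (read as ATTGG where it lies on the other strand) and, in SREBF2, also the 9-base core, which begins at position -133 relative to the start and does not overlap the CCAAT match. The CYP51A1 window held no match.
TM7SF2, chr11:65111622-65111921, plus strand: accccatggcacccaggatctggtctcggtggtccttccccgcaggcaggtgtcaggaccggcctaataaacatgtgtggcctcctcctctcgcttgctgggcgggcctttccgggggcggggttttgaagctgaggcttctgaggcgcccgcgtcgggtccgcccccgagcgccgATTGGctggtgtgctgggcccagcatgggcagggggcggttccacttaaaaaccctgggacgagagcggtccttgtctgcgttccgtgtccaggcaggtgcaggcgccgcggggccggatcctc
CYP51A1, chr7:92134428-92134727, minus strand: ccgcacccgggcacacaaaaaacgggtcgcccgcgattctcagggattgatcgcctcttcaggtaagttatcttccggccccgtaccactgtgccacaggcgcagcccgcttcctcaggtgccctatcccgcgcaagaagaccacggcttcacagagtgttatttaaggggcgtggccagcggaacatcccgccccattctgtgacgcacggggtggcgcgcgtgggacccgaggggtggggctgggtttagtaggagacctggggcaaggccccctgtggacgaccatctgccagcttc
MVK, chr12:109573544-109573843, plus strand: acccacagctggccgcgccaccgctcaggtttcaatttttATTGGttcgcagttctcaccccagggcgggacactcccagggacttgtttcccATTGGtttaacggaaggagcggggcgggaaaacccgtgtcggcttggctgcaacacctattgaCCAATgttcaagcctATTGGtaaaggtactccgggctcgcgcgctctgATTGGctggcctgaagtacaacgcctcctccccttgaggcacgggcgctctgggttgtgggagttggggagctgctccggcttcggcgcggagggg
SREBF2, chr22:41832855-41833154, plus strand: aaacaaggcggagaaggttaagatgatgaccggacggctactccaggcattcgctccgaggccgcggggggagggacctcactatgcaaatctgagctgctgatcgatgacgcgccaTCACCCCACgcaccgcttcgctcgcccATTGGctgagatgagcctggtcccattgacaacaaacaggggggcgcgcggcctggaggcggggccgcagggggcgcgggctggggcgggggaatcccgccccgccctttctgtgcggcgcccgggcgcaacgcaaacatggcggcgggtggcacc

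Total counts ran from 19484569 to 20531612 in GCA libraries and from 18057453 to 19110987 in CON libraries. Replicate 1 stood apart in both groups: as a chi-square per gene, the difference within a group was 23.9 and 21.1 for pairs with GCA 1 and 6.71 without it, and 42.1 and 47.8 for pairs with CON 1 and 4.99 without it. Epithelial markers were present, summing to between 11130 and 12700 CPM (counts relative to the scaled library size) in GCA and between 7914 and 10110 CPM in CON. Of the 8, 4 were higher in GCA, and VIL1 was under 1 CPM in both groups. Most of each sum came from the keratins KRT8, KRT18 and KRT19, which averaged 6991, 2355 and 2264 CPM in GCA and 4955, 1446 and 2014 CPM in CON. KRT20, 1 of the 4 higher, averaged only 1.92 CPM in GCA and 0.915 CPM in CON. Lists of leukocyte, fibroblast and endothelial, cardiomyocyte and hepatocyte markers had 1 or 2 tested genes each. Their highest library sums in GCA were 41.4, 18.2, 41.4 and 21.1 CPM, against 32.04, 12.6, 25.1 and 6.47 CPM in CON, and 5 of their 6 tested genes were higher in GCA. Those 5 were CORO1A, COL1A1, VWF, the cardiac troponin gene TNNI3 and SERPINA1, while 18.3% of all genes tested were higher in GCA. The remaining tested gene, the leukocyte marker CD68, did not pass the test and averaged 18.2 CPM in GCA and 22.3 CPM in CON. CORO1A averaged 16.3 CPM in GCA and 7.31 CPM in CON, COL1A1 15.02 CPM in GCA and 11.1 CPM in CON, and VWF 1.68 CPM in GCA and 0.615 CPM in CON. TNNI3 averaged 38.1 CPM in GCA and 23.8 CPM in CON, and SERPINA1 17.1 CPM in GCA and 5.04 CPM in CON. On the same lists PTPRC, CD3E, DCN, MYH6 and ALB averaged under 0.1 CPM in both groups. The part of such cells in the results was not tested.

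Cholesterol genes did not move as a block. With an adjusted p under 0.05, 5 of the 32 tested genes were higher in GCA (PMVK, LSS, TM7SF2, STARD3 and NPC2) and 3 were lower (CYP51A1, LRP8 and NPC1). That is 25% of the tested genes, against 36.4% of all 12604 genes tested (18.3% higher and 18.1% lower). Their median log2 fold change was 0.02, against -0.04 over all genes tested. The groups did not overlap in 15 of the 32 genes, 8 with GCA above and 7 with GCA below, against 48.5% of all genes tested. The share of cholesterol genes that passed was thus no higher than that of genes in general, and the genes that passed were spread over synthesis, uptake and trafficking.

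**Figure D1:**
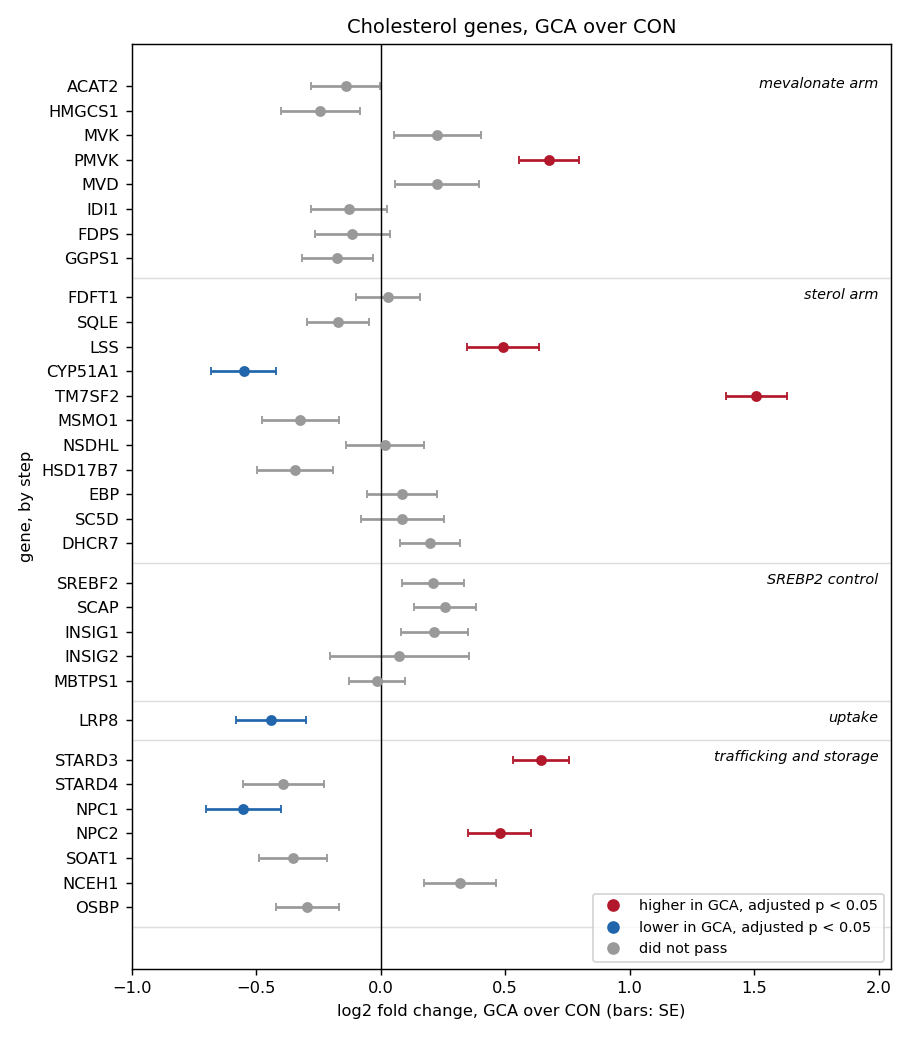
Log2 fold change of GCA over CON (x axis, bars are SE) for the 32 tested genes, in rows by step and pathway order; red and blue points passed the test as higher and lower in GCA, grey points did not. TM7SF2 lies alone at 1.51, and the other 31 genes lie between -0.55 and 0.68.

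In the mevalonate arm 1 of 8 genes passed the test. PMVK encodes phosphomevalonate kinase (chromosome 1, 154924740 to 154942658, GRCh38). It had 48.4, 46.7 and 48.0 CPM in GCA 1 to 3, against 33.02, 26.6 and 29.8 CPM in CON 1 to 3. Each GCA library lay above each CON library, and PMVK rose 1.60-fold (log2 0.68 ± 0.12, SE; adjusted p = 0.00110). With a correction for GC content and length its log2 value was 0.21 (adjusted p = 0.123).

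HMGCS1, which makes HMG-CoA and is a classical SREBP2 target, did not pass. It had 25.7, 37.2 and 30.2 CPM in GCA, against 30.4, 40.9 and 38.8 CPM in CON (log2 -0.24 ± 0.16, adjusted p = 0.244). Replicate 1 was the lowest library of each group. The groups overlapped in ACAT2 (acetoacetyl-CoA thiolase), IDI1 (isomerase of isopentenyl units) and FDPS (farnesyl diphosphate synthase), whose log2 values were -0.14, -0.13 and -0.11. GGPS1, which branches off towards protein prenylation, had -0.17 with GCA just below CON. The sources used here do not give the strand use in counting. On the opposite strand, 34.8% of the exon bases of ACAT2 overlap SOD2, 12.5% overlap TCP1 and 45.8% overlap SOD2-OT1. Also on the opposite strand, 28.9% of those of FDPS overlap RUSC1-AS1 and 19.9% of those of HMGCS1 overlap AC114947.2. SOD2-OT1, RUSC1-AS1 and AC114947.2 have no row of their own. On the same strand, 11.3% of the exon bases of GGPS1 overlap TBCE. FDPS has 8 named pseudogenes in GENCODE release 29, CYP51A1 has 3 and HSD17B7 has 2, none with a row of its own, so reads could be split between copies.

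MVK (mevalonate kinase) and MVD (mevalonate diphosphate decarboxylase) turned on 1 control library. MVK had 54.4, 53.8 and 56.9 CPM in GCA, against 64.0, 39.1 and 37.9 CPM in CON. MVD had 176, 191 and 197 CPM in GCA, against 212, 145 and 126 CPM in CON. In both genes CON 1 was the highest of all 6 libraries and CON 2 and 3 the lowest. With all libraries the log2 values were 0.23 for each (adjusted p = 0.324 and 0.313). Without CON 1 they were 0.51 and 0.47 (adjusted p = 0.000690 and 0.00146). With all libraries and the GC and length correction they were -0.11 and -0.27 (adjusted p = 0.645 and 0.165).

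In the sterol arm 2 of 11 genes rose and 1 fell. TM7SF2 encodes a sterol reductase that removes the double bond left when CYP51A1 demethylates lanosterol (chromosome 11, 65111872 to 65116230). It had 125, 109 and 124 CPM in GCA, against 42.6, 37.7 and 45.4 CPM in CON. It rose 2.85-fold (log2 1.51 ± 0.12, adjusted p = 4.29e-06), and the lowest GCA library was above the highest CON library by more than the range within either group. It passed in all 20 alternatives, with log2 values from 0.95 to 1.58.

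CYP51A1, the lanosterol demethylase one step before it (chromosome 7, 92112153 to 92134803), went the other way. It had 56.5, 64.7 and 54.2 CPM in GCA, against 74.9, 98.7 and 83.5 CPM in CON. It fell to 58.5 ± 5.504 CPM (SD, n = 3) in GCA, against 85.7 ± 12.03 CPM in CON (log2 -0.55 ± 0.13, adjusted p = 0.00655). It passed in all 20 alternatives, at -0.30 with the GC and length correction (adjusted p = 0.0457). LSS, which closes squalene epoxide to lanosterol (chromosome 21, 46188446 to 46228774), had 174, 167 and 178 CPM in GCA, against 152, 117 and 101 CPM in CON. LSS rose 1.40-fold (log2 0.49 ± 0.14, adjusted p = 0.0190), with CON 1 closest to the GCA libraries. Its call was lost on leaving out any 1 of the other 5 libraries (adjusted p from 0.0525 to 0.0911). Corrected for GC and length, its log2 value was 0.19 (adjusted p = 0.354).

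The other 8 genes of the sterol arm did not pass. SQLE, the squalene epoxidase and a rate-limiting step, had 55.01, 67.3 and 65.8 CPM in GCA, against 67.0, 76.9 and 68.0 CPM in CON (log2 -0.17 ± 0.12, adjusted p = 0.289). FDFT1, the squalene synthase, had a log2 value of 0.03 whose sign changed with the scaling. MSMO1, NSDHL and HSD17B7, which together take off the paired methyl groups next to the sterol hydroxyl, had -0.32, 0.02 and -0.34 (adjusted p = 0.118, 0.947 and 0.0911), and the NSDHL sign also changed with the scaling. MSMO1 passed with the replicate number as a block (log2 -0.34, adjusted p = 0.0457). After the GC and length correction it stood at -0.08 (adjusted p = 0.650), and at -0.09 with block and correction together (0.537). HSD17B7 passed on log2(FPKM + 1), at -0.34 (adjusted p = 0.0463), and stood at -0.16 after the correction (0.368). EBP (sterol isomerase), SC5D (lathosterol oxidase) and DHCR7 (the reductase that makes cholesterol from its last precursor) had 0.08, 0.09 and 0.20. Without CON 1, EBP and DHCR7 passed at 0.27 and 0.29 (adjusted p = 0.0206 and 0.0141). With all libraries and the GC and length correction they stood at -0.16 and -0.15 (adjusted p = 0.239 and 0.263).

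None of the 5 genes of SREBP2 control passed, and none had an unadjusted p under 0.05 in edgeR; DESeq2 and limma-voom also called none of them. SREBF2, the SREBP2 gene, had 568, 561 and 605 CPM in GCA, against 455, 511 and 532 CPM in CON. The GCA libraries all lay above the CON libraries, by 1.16-fold on the fitted scale (log2 0.21 ± 0.12, adjusted p = 0.2003). The log2 value was -0.04 with the GC and length correction. SCAP, the sterol-sensing escort, had 159, 147 and 167 CPM in GCA, against 149, 121 and 125 CPM in CON (log2 0.26 ± 0.12, adjusted p = 0.120). It passed without CON 1, at 0.35 (adjusted p = 0.00582). With all libraries and the GC and length correction it stood at -0.16 (adjusted p = 0.282).

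INSIG1, the retention factor that SREBP2 itself induces, had 79.3, 107 and 107 CPM in GCA, against 84.4, 89.3 and 78.9 CPM in CON (log2 0.22 ± 0.14, adjusted p = 0.226). GCA 1 lay within the CON range and the other two GCA libraries above it, and without GCA 1 INSIG1 passed at 0.36 (adjusted p = 0.0485). INSIG2, the second retention factor, had 3.77, 7.89 and 7.91 CPM in GCA, against 4.68, 5.99 and 7.87 CPM in CON, with the widest error of all 32 genes (log2 0.07 ± 0.28). MBTPS1, the first of the Golgi proteases that cut SREBP2, had a log2 value of -0.02 ± 0.11. Leaving out replicate 1 of both groups, SREBF2, SCAP and INSIG1 all passed as higher in GCA, at 0.18, 0.37 and 0.37 (adjusted p = 0.0289, 0.000526 and 0.000778).

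Of the lipoprotein receptors, only LRP8 was expressed at a testable level. LRP8, a receptor for apolipoprotein E and reelin (chromosome 1, 53242364 to 53328070), had 36.8, 31.6 and 33.1 CPM in GCA, against 36.9, 49.9 and 51.1 CPM in CON. It fell to 33.8 ± 2.68 CPM in GCA, against 46.0 ± 7.86 CPM in CON (SD, n = 3 each; log2 -0.44 ± 0.14, adjusted p = 0.0269). GCA 1 and CON 1 were nearly level, so the groups barely parted, and the call was lost without GCA 2, GCA 3, CON 2 or CON 3 (adjusted p from 0.0992 to 0.119). Corrected for GC and length, LRP8 also missed the threshold (log2 -0.27, adjusted p = 0.0827), as it did on log2(FPKM + 1) (0.0824). VLDLR, its close relative, had 0, 2 and 1 counts in GCA, against 1, 1 and 2 in CON, under a floor of 3 counts in each library.

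In trafficking and storage 2 of 7 genes rose and 1 fell. All 7 had an unadjusted p under 0.05, as did 5883 of the 12604 genes tested. The lysosomal pair moved apart. NPC2, the soluble lysosomal carrier that hands cholesterol to NPC1 (chromosome 14, 74479935 to 74493512), had 115, 146 and 147 CPM in GCA, against 101, 95.01 and 96.8 CPM in CON. NPC2 rose 1.39-fold (log2 0.48 ± 0.13, adjusted p = 0.0108), and it stood at 0.58 with the GC and length correction. Its call was lost without GCA 2 (adjusted p = 0.0558) or GCA 3 (0.0681).

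NPC1, the membrane transporter (chromosome 18, 23506184 to 23586506), had 38.0, 35.5 and 38.0 CPM in GCA, against 41.6, 57.4 and 64.5 CPM in CON. It fell to 37.2 ± 1.44 CPM in GCA, against 54.5 ± 11.7 CPM in CON (log2 -0.55 ± 0.15, adjusted p = 0.0127). The CON libraries varied much more than the GCA libraries, CON 1 lying closest to GCA. The log2 value was -0.72 without CON 1, and the call was lost without GCA 2 (adjusted p = 0.0604) or CON 3 (0.0686) and on log2(FPKM + 1) (0.0508). With the GC and length correction it stood at -0.50 (adjusted p = 0.0117).

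STARD3, a sterol transfer protein of late endosomes (chromosome 17, 39637144 to 39664201), had 116, 112 and 126 CPM in GCA, against 79.3, 71.2 and 75.9 CPM in CON. It rose 1.56-fold (log2 0.64 ± 0.11, adjusted p = 0.00108) and passed in all 20 alternatives, at 0.28 with the GC and length correction. STARD4, a soluble sterol carrier and known SREBP2 target, had 13.9, 17.1 and 14.03 CPM in GCA, against 16.5, 23.04 and 19.5 CPM in CON (log2 -0.39 ± 0.16, adjusted p = 0.0750). Its groups overlapped, and its call appeared with the replicate number as a block (adjusted p = 0.0365) or on leaving out CON 1 (0.00934). Corrected for GC and length, STARD4 stood at -0.04, without the block (adjusted p = 0.814) and with it (0.782).

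For the stored pool, SOAT1, which esterifies cholesterol, had 20.8, 24.4 and 22.0 CPM in GCA, against 24.7, 31.3 and 29.9 CPM in CON (log2 -0.35 ± 0.14, adjusted p = 0.0614). All GCA libraries lay below all CON libraries, and the block by replicate number (adjusted p = 0.0383) or the absence of CON 1 (0.00512) brought it past the threshold. SOAT1 stood at -0.04 once corrected for GC and length, without the block (adjusted p = 0.809) and with it (0.797). NCEH1, a hydrolase of cholesterol esters, had 15.3, 16.0 and 16.7 CPM in GCA, against 12.6, 11.8 and 14.03 CPM in CON (log2 0.32 ± 0.14, adjusted p = 0.0995). All GCA libraries lay above all CON libraries. Corrected for GC and length, it passed at 0.61 (adjusted p = 0.00772). OSBP, which exchanges cholesterol between the endoplasmic reticulum and the Golgi, had 57.1, 52.2 and 42.8 CPM in GCA, against 64.7, 60.6 and 61.4 CPM in CON (log2 -0.30 ± 0.13, adjusted p = 0.0863).

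**Figure D2:**
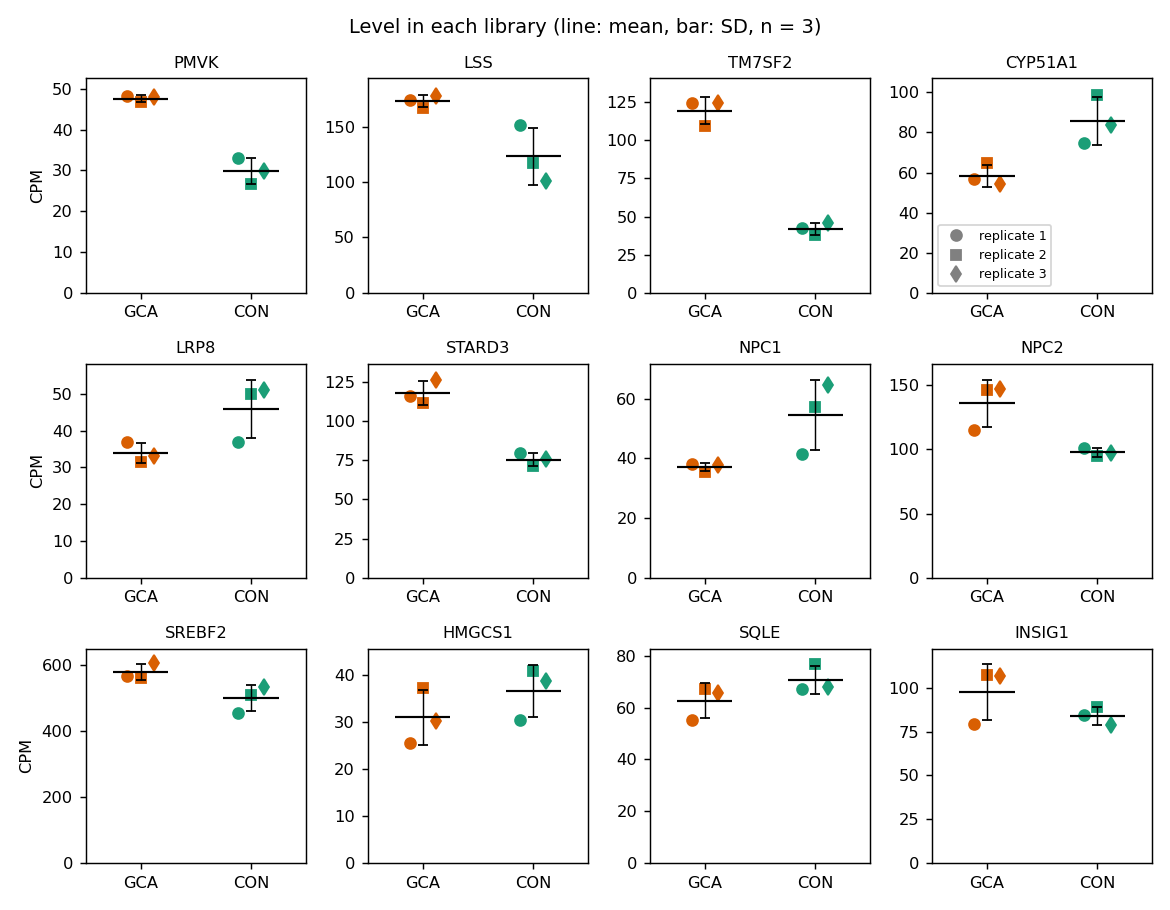
Level in CPM (y axis, from 0) in each GCA and CON library, for the 8 genes that passed the test and for SREBF2, HMGCS1, SQLE and INSIG1; marker shape gives the replicate number, lines are means and bars SD (n = 3). In TM7SF2 the GCA libraries lie between 109 and 125 CPM and the CON libraries between 37.7 and 45.4 CPM, while for LRP8 and NPC1 replicate 1 of both groups lies at a similar level.

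Summed over each step, the mevalonate arm gave 540, 593 and 581 CPM in GCA, against 662, 514 and 463 CPM in CON, so that CON 1 was the highest library and CON 2 and 3 the lowest. The sterol arm gave 1045, 1125 and 1133 CPM in GCA, against 1055, 969 and 913 CPM in CON. SREBP2 control gave 981, 976 and 1041 CPM in GCA, against 850, 892 and 907 CPM in CON, with no overlap. Trafficking and storage gave 376, 403 and 407 CPM in GCA, against 341, 350 and 362 CPM in CON, also with no overlap. Uptake, which is almost entirely LRP8, gave 36.8, 31.7 and 33.2 CPM in GCA, against 37.0, 49.9 and 51.2 CPM in CON, GCA lying below CON with GCA 1 and CON 1 nearly level. These sums follow their most abundant members.

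**Figure D3:**
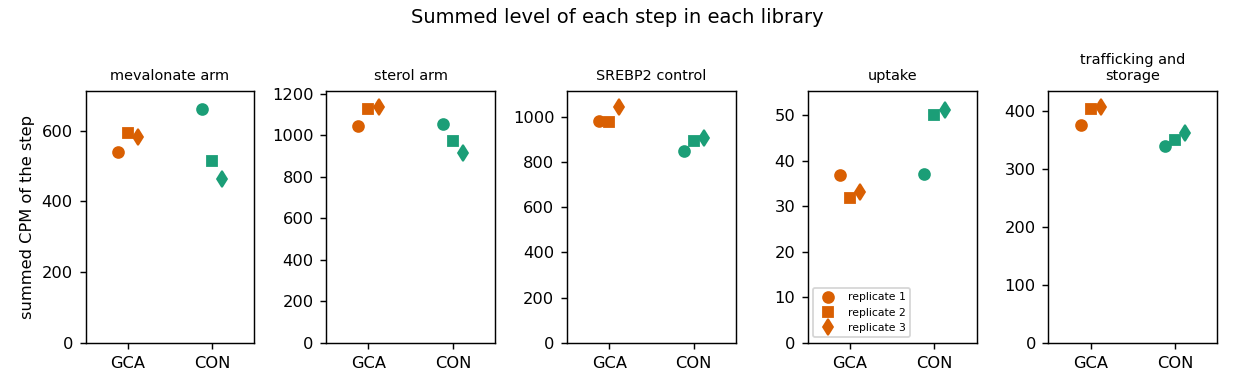
Summed CPM of the genes of each step (y axes, from 0, each with its own scale) in each GCA and CON library, with marker shape for the replicate number. CON 1 is the highest library in the mevalonate arm at 662 CPM, and in uptake it lies at 37.0 CPM, next to the GCA libraries.

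CON 1 differed from the other CON libraries in many of these genes. Among the 32 tested genes CON 1 lay above both other CON libraries in 16 and below both in 13, shares of 50% and 40.6% against 38% and 48.5% of all genes tested. On the log2 scale it exceeded the mean of CON 2 and 3 by 0.73 in MVK, 0.65 in MVD, 0.59 in NSDHL and 0.54 in FDPS, and it was lower by a log2 value of -0.55 in NPC1 and -0.45 in LRP8. Without CON 1, 16 of 32 genes passed, 10 higher and 6 lower, including all 8 that passed with 6 libraries. The 8 added were MVK, MVD, EBP, DHCR7 and SCAP as higher and HMGCS1, STARD4 and SOAT1 as lower in GCA. With all 6 libraries and the GC and length correction, MVK, MVD, EBP, DHCR7 and SCAP stood between -0.11 and -0.27. In that fit HMGCS1 stood at 0.07 and STARD4 and SOAT1 at -0.04 each, and none of these 8 passed. Over all genes the share that passed without CON 1 was also larger, 52.6%, against 50% of the cholesterol genes. Without replicate 1 of both groups 21 of the 32 passed (65.6%, against 58.5% of all genes), 15 higher and 6 lower, on 2 libraries per group.

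**Figure D4:**
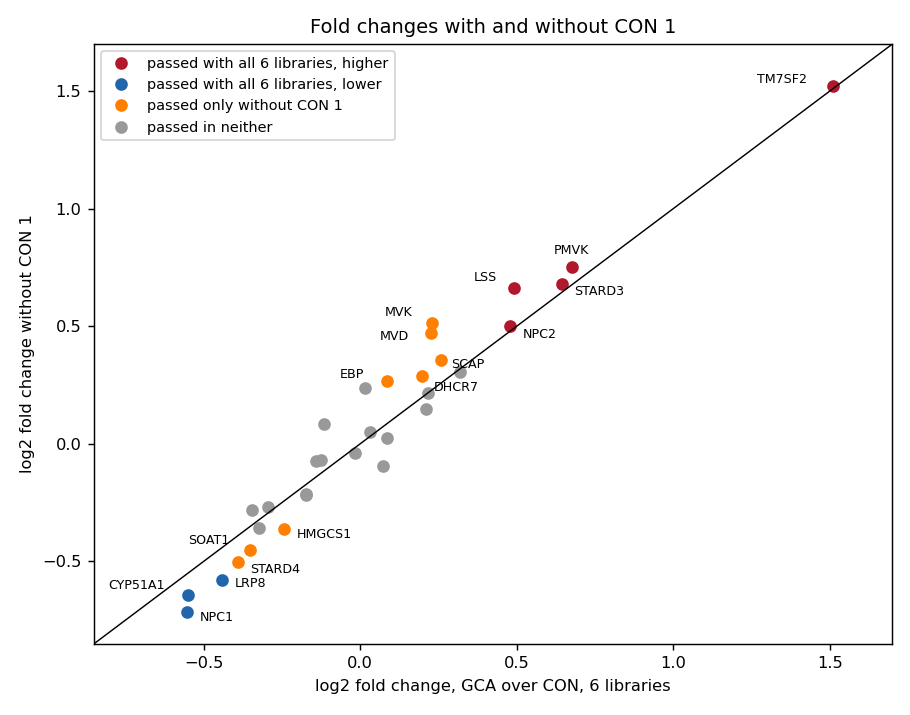
Log2 fold change of GCA over CON with 6 libraries (x axis) and without CON 1 (y axis) for the 32 tested genes; the line marks equal values and orange points passed only without CON 1. MVK and MVD lie above the line, at 0.51 and 0.47 without CON 1, and NPC1 lies below it at -0.72.

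Fold changes moved with GC content. Across the 32 tested genes the log2 fold change correlated with the GC content of the longest transcript at r = 0.61 (Spearman's rho 0.60), and across 12563 tested genes at r = 0.48 (0.56), given as descriptions across genes that share the same libraries. Of the 10 genes over 55% GC, 9 had a positive log2 value, and over all such genes tested 79.6% did. Of the 12 genes under 45% GC, 4 did, namely SC5D, INSIG2, NPC2 and NCEH1, against 19.8% of all such genes. TM7SF2 had the highest GC content of the 32 genes, 64.2%, while MVD at 63.7% and SCAP at 62.3% did not pass. With the GC and length correction 8 genes again passed (25% of the 32, against 29.4% of all genes so fitted), 5 higher and 3 lower, of which TM7SF2, STARD3, NPC2, CYP51A1 and NPC1 were shared with the uncorrected result. PMVK, LSS and LRP8 were lost. NCEH1 and SC5D, at 0.61 and 0.40, were added as higher and FDPS, at -0.41, as lower (adjusted p = 0.00772, 0.0419 and 0.0287). The sign turned in 10 genes, none of which passed in either fit. SREBF2, NSDHL, MVK, DHCR7, SCAP, EBP and MVD, positive uncorrected, stood between -0.04 and -0.27. HMGCS1, GGPS1 and IDI1, negative uncorrected, stood at 0.07, 0.12 and 0.15. The correction takes out any group difference that follows GC content or length, whether technical or due to treatment. The part of GC content in these differences was not tested.

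**Figure D5:**
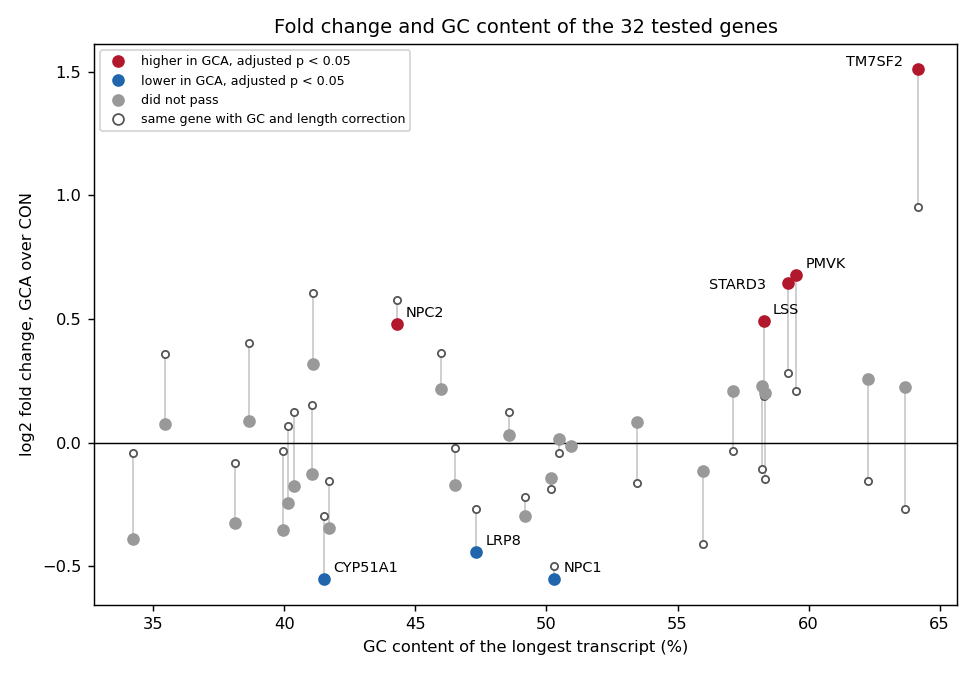
Log2 fold change of GCA over CON (y axis) against the GC content of the longest transcript in percent (x axis) for the 32 tested genes; filled points are uncorrected values and open points the same genes after the GC and length correction. TM7SF2 lies at 1.51 uncorrected and 0.95 corrected, and NPC2 is the one higher gene under 45% GC.

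Per length, in the deposited FPKM values (counts scaled by gene length and library total), 24 of the 32 tested genes stood above the median of all genes tested, at percentiles from 27.2 to 93.4. FDPS averaged 91.2 FPKM in GCA and 101 FPKM in CON. NPC2 averaged 108 FPKM in GCA and 80.1 FPKM in CON. TM7SF2 averaged 74.5 FPKM in GCA and 27.0 FPKM in CON, so that its level came near that of DHCR7, at 79.4 FPKM in GCA and 71.2 FPKM in CON. INSIG1 was 16.9 to 26.3 times the level of INSIG2 in GCA libraries and 12.5 to 22.5 times in CON libraries, with overlap. NPC2 was 18.2 to 24.8 times the level of NPC1 in GCA libraries, against 9.06 to 14.7 times in CON libraries, with no overlap. This separation follows from NPC2 lying above CON and NPC1 below it in GCA, so it adds no separate result.

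Other genes of the pathway, 41 that are not among the 33, were taken from a list. Of 39 tested, 8 were higher and 6 lower in GCA (35.9%, near the 36.4% of all genes). LBR, the reductase that shares the activity of TM7SF2, had a log2 value of -0.33 (adjusted p = 0.0445). Corrected for GC and length, LBR stood at -0.01. TM7SF2 was 4.69 to 5.97 times the FPKM of LBR in GCA libraries, against 1.24 to 1.67 times in CON libraries. POR, which feeds electrons to CYP51A1 and SQLE, rose by 0.51 ± 0.11 to 184 CPM in GCA, against 130 CPM in CON (adjusted p = 0.00467). With the correction POR stood at 0.09 (adjusted p = 0.485).

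PDSS1 and PDSS2, which build the isoprenoid tail of ubiquinone, both fell, by log2 values of 0.74 ± 0.17 for PDSS1 and 0.66 ± 0.15 for PDSS2 (adjusted p = 0.00467 and 0.00540). PDSS1 averaged 11.95 CPM in GCA and 19.99 CPM in CON, and PDSS2 averaged 9.63 CPM in GCA and 15.3 CPM in CON. NUS1, of dolichol synthesis, fell by 0.41. LRP1, an endocytic receptor, rose by 0.69 ± 0.17 to 21.0 CPM in GCA, against 13.0 CPM in CON (adjusted p = 0.00794). ERLIN1, a membrane factor that restrains SREBP activation, fell by 0.46 ± 0.12 to 63.9 CPM in GCA, against 87.6 CPM in CON (adjusted p = 0.00951). The GC and length correction ended the calls of NUS1 (log2 -0.09, adjusted p = 0.597), LRP1 (0.37, 0.0842) and PDSS2 (-0.40, 0.0672). PDSS1 and ERLIN1 passed narrowly after it, at -0.53 and -0.28 (adjusted p = 0.0489 and 0.0496). With the block as well LRP1 and PDSS2 passed again (adjusted p = 0.0262 and 0.0435).

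MYLIP, a ubiquitin ligase that marks lipoprotein receptors such as LRP8 and VLDLR for degradation, rose by 0.85, and LIPA, the lysosomal lipase that frees cholesterol from lipoprotein esters, rose by 0.42. With the correction both passed, at 1.02 and 0.65. The lipid transfer genes OSBPL5 and GRAMD1A and the electron donor CYB5R3 rose by 0.44, 0.34 and 0.39, and VAPA, the anchor of OSBP at the endoplasmic reticulum, fell by 0.31. With the correction these 4 stood between -0.09 and 0.01 and none passed. With it 6 of the 39 genes passed, 4 higher and 2 lower, against 29.4% of all genes so fitted. Without GCA 3, 5 of the 39 passed, POR, OSBPL5, PDSS1 and PDSS2 among them, against 20.6% of all genes. Without CON 2, 7 of the 39 passed, against 23.8% of all genes.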

How the data were processed

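Of the deposited files, a table of raw counts per gene was tested, and an FPKM table of those 16229 symbols was used for levels per length; the authors' FPKM equal count over total and 1 length per gene, within 1e-09, for all 16229. Per the submitters' processing notes the tools were HISAT2 2.2.1.0, HTSeq 0.11.2 and fastp 0.20.1, with hg38, without roles; the sources used here do not give annotation, strand setting or filters.

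Counts of 3 GCA and 3 CON libraries, 18057453 to 20531612 per library, were fitted with edgeR 4.0.16 (R 4.3.3): TMM, filterByExpr (minimum count 10, total 15), glmQLFit and glmQLFTest over 12604 genes, Benjamini-Hochberg adjusted p under 0.05. SE is the log2 fold change over the square root of F. CPM use TMM-scaled library sizes, where 3 counts are 0.146 to 0.166 CPM (counting error only). The code was checked on simulated counts. GC content is that of the longest GENCODE release 29 transcript (99.2% of symbols). The GC and length correction is a per-library spline offset (5 degrees of freedom each), fitted to deviations from each gene's mean over all 6 libraries. It therefore also takes out any GCA to CON difference that follows GC content or length, whether technical or due to treatment.

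Deviations of same-numbered libraries from their group means correlated at 0.206, 0.137 and 0.104, and those of differently numbered ones at -0.172 to 0.095. The lowest same-numbered value, 0.104, was close to 0.095, so these values do not establish that the numbers pair libraries. The block by replicate number was kept as an alternative, and the unblocked fit stayed the main one.

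Genes and lists were chosen with earlier results of these data known. All 33 genes are described, those that passed and SREBF2, HMGCS1, SQLE and INSIG1 in full; of the other pathway genes, those that passed are named. Some genes of that list are not reported here. Other normalizations, filters, DESeq2 1.42.0, limma 3.58.1, the block, the correction and left-out libraries were the 20 alternatives. No table of protein sequences was used here.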

Additional observations from a re-analysis of the deposited data

How the results depend on the processing

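All 8 genes that passed kept their direction in all 20 alternatives, and TM7SF2, CYP51A1 and STARD3 passed in every one. Of 640 single values, 24 lost a call, 36 gained one and 0 turned a called sign. The replicate block gave 6 lower cholesterol genes. MSMO1, STARD4 and SOAT1 were its added calls and it changed no other call among the 33. With it 11 of the 32 tested cholesterol genes passed (34.4%), against 41.0% of all genes, so calls were more frequent in general. Leaving out libraries gave 5 to 21 called cholesterol genes (3 to 15 higher, 1 to 6 lower). The lowest total, 5 (15.6%), came without GCA 2, GCA 3 or CON 3, where 25.4%, 20.6% and 26.7% of all genes passed. The highest (65.6%) came without replicate 1 of both groups, where 58.5% of all genes passed. For other pathway genes these ranges were 5 to 26 (3 to 14 higher, 2 to 12 lower), and for all genes 2621 to 7419 (1493 to 3710 higher, 1128 to 3709 lower). The GC and length correction gave 6 other pathway genes (4 higher, 2 lower) and 1532 higher genes in all, with 29.4% of all genes passing. With the replicate block as well 5 other pathway genes were higher, and 35.1% of all genes passed. Unfiltered log2(FPKM + 1) gave 8 of the 41 other pathway genes, 4 of them higher, where 21.6% of all 16229 genes passed. The causes were not tested. With SEs of 0.11 to 0.28 on the log2 scale, changes of the size seen in most of the 24 genes that did not pass, -0.39 to 0.32, could not be told from 0. A fit of RNA counts gives no level of sterol or protein.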
